A study of Homo sapiens with 6 samples.

Results

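The translation initiation factors are the proteins that bring the initiator tRNA, the mRNA cap and the 2 ribosomal subunits together at a start codon. They were taken here as the protein-coding genes whose symbol begins with EIF1 to EIF6, without the 4 eIF2 kinases, which gave 52 genes of the 62703 in the count tables. RNA was sequenced in bulk from MDA-MB-231 cells, a human triple-negative breast cancer line, carrying hairpin RNA against RNF20 (shRNF20, 3 libraries) or a control hairpin (shControl, 3 libraries), and the comparison asked how mRNA levels differed after RNF20 knockdown. RNF20 works with RNF40 as the E3 ligase for ubiquitin on H2B, a histone mark of transcribed genes. The labels give no further allele, agent or time, and do not say how many hairpins were used or whether cells were pools or clones.

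In textbook terms, eIF2 carries the initiator tRNA to the small subunit, eIF1, eIF1A and eIF5 govern scanning and start codon choice, and eIF3 is the large scaffold on the small subunit. The cap is bound by eIF4E, which joins the scaffold eIF4G and the helicase eIF4A in the complex eIF4F, and the 4E-BP proteins compete with eIF4G for eIF4E. After each round eIF2 is recharged with GTP by the exchange factor eIF2B, and phosphorylation of the alpha subunit of eIF2 under stress blocks that exchange. Breast cancer cells are known to lean on eIF4F and on the signalling through mTORC1 that inactivates the 4E-BPs.

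Gene counts totalled 21988826 to 28265573 in the shRNF20 libraries and 23786533 to 29685306 in the shControl libraries. RNF20 stood at 14.1, 12.2 and 11.1 CPM (counts scaled to library size, with TMM factors) in shRNF20 and at 57.8, 58.5 and 58.0 CPM in shControl, so the target gene was lower in the libraries labelled as knockdown (log2 fold change -2.22, SE 0.11, edgeR adjusted p = 5.23e-06). Several library measures moved with the groups, and their part in the results below was not tested. Mitochondrially encoded RNA took 4.91% to 6.22% of gene counts in shRNF20 and 0.934% to 1.38% in shControl, and reads outside annotated exons made up 5.05% to 5.49% of all reads in shRNF20 and 2.39% to 2.58% in shControl. The shRNF20 libraries were also much closer to each other: the coefficient of variation between libraries, as edgeR estimated it beyond counting error, was 0.0397 in shRNF20 and 0.200 in shControl. Of the markers of the line, VIM, CD44 and AXL were abundant in every library (summed 2124 to 2135 CPM in shRNF20 and 2667 to 2996 CPM in shControl). Their sum hides that VIM and CD44 were called lower. AXL held the most and did not pass (1304 ± 20.2 CPM in shRNF20 and 1358 ± 61.1 CPM in shControl, SD, n = 3 each). PGR did not exceed 0.213 CPM. ESR1 was rare but called higher, at 1.44 ± 0.21 CPM in shRNF20 and 0.0997 ± 0.10 CPM in shControl (SD, n = 3 each). ERBB2 was called higher, at 138 to 141 CPM in shRNF20 and 91.3 to 108 CPM in shControl. CDH1 was called lower, at 6.49 to 7.66 CPM and 13.3 to 26.2 CPM in those groups. The leukocyte marker PTPRC did not exceed 0.363 CPM in shRNF20 and 0.947 CPM in shControl. The 6 fibroblast and endothelial markers summed to 37.7 to 39.6 CPM in shRNF20 and 18.7 to 21.5 CPM in shControl, but did not move together. COL1A1 (30.2 ± 0.97 CPM in shRNF20 and 13.2 ± 0.61 CPM in shControl), LUM (6.67 ± 0.72 and 0.865 ± 0.22 CPM) and COL3A1 (1.201 ± 0.14 and 0.128 ± 0.17 CPM) were called higher, and PECAM1 (0.659 ± 0.06 and 5.12 ± 1.56 CPM) was called lower (SD, n = 3 each). The part of these markers in the results was not tested.

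Initiation factor mRNAs moved in both directions after RNF20 knockdown, and mostly by modest amounts. Of 48 members abundant enough to test, 16 rose, 12 fell and 20 missed the threshold in edgeR's quasi-likelihood test at an adjusted p of 0.05. That is 58.3% of those tested, beside 58.4% of all 15797 genes tested, of which 28.7% were called higher and 29.8% lower, so the members were called about as often as genes in general. Among the 9601 genes with a mean of at least 10 CPM the shares were 30.5% higher and 33.9% lower, 64.4% in all. The groups did not overlap in CPM for 36 of the 48 members (75.0%), beside 66.3% of all genes. The median log2 fold change was 0.17 over the members and -0.01 over all genes tested. Its absolute size had a median of 0.30 over the members, 0.51 over all genes, and 0.41 over those above 10 CPM. In a bulk sample a change in RNA per cell cannot be told apart from a change in the make-up of the cells.

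Together the 52 genes held 10400, 10247 and 10424 CPM in the shRNF20 libraries and 10258, 8932 and 10039 CPM in the shControl libraries, a mean of 1.04% and 0.974% of gene counts. These totals overlapped between the groups. The control libraries differed among themselves: the second shControl library held the lowest of the 3 control values for 33 of the 48 members. Within its own group, the second shRNF20 library held the lowest value for 26 of the 48. The median coefficient of variation of a member was 2.92% over the shRNF20 libraries and 12.002% over the shControl libraries.

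A total of 11 calls held under all 17 other settings tried, which include each library left out and the 3 shRNF20 libraries summed to 1 sample. These were the rises of EIF1AD, EIF2S1, EIF3J, EIF4A3 and EIF5A2, the higher count of EIF4A1, of which only part of the mRNA was counted, and the falls of EIF2D, EIF4E3, EIF4EBP1, EIF4G3 and EIF5B. The other 17 calls were lost when the shRNF20 libraries were summed, where the spread came from the controls alone. Of those, 7 were also lost under another setting (EIF2B2, EIF3K, EIF3L, EIF4B, EIF4E, EIF4G1 and EIF4H), and their values are given with each complex. None of the 28 called members changed direction under these settings.

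**Figure D1:**
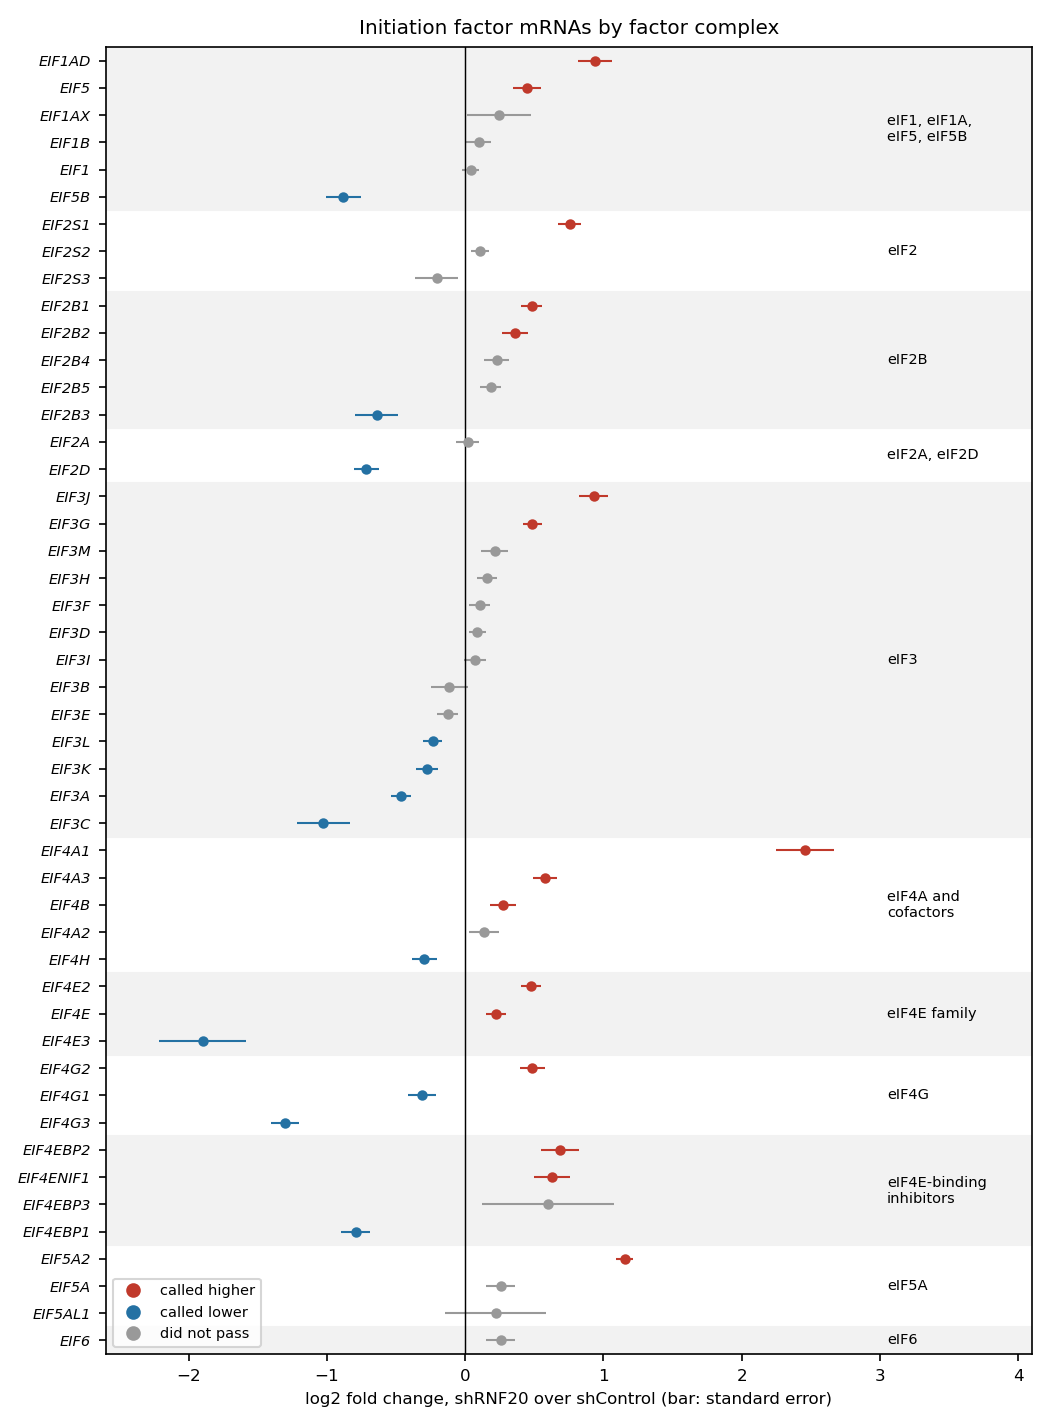
Log2 fold change of each tested initiation factor gene, shRNF20 over shControl, with its standard error as a bar, grouped by factor complex and coloured by whether it was called higher, called lower or did not pass. Most points lie within 0.5 of 0 on either side, and EIF4A1 (2.46) and EIF4E3 (-1.90) lie farthest out, both at low counts.

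The remaining 4 genes were not tested. EIF4E1B, an oocyte form of eIF4E, had 0 counts in each library, which allows at most 0.101 to 0.136 CPM (3 counts per library, counting error only). EIF2S3B, a retrocopy of EIF2S3, had at most 7 counts in a library and EIF3CL, a copy of EIF3C, at most 15. EIF1AY, the Y-linked copy of EIF1AX, was also under the filter.

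Many mRNAs of the translation machinery start with a C followed by an unbroken run of pyrimidines, the terminal oligopyrimidine (TOP) motif through which mTORC1 and LARP1 regulate them. The set of RefSeq starts used here covered 44 of the 52 members. Absence from this set does not show that a gene lacks a RefSeq start. In 10 of the 44 (22.7%) the first base of a start is C, followed by at least 4 further C or T bases. The shares were 5.14% of all 27305 symbols in the set and 7.07% of those tested here. Of the 10 members, the 9 that were tested are shown because they share this start. Each is given as the 15 bases before and the 15 bases from the annotated start, 5′ to 3′ on the strand given (RefSeq, GRCh38.p14). Capitals mark the C and the pyrimidine run that follows it.
EIF2A, chr3:150546772-150546801, plus strand: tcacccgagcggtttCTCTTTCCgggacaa
EIF2D, chr1:206612451-206612480, minus strand: ggtttccagccgggcCCTTTTCgcggccgg
EIF2S3, chrX:24054941-24054970, plus strand: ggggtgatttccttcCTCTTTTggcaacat
EIF3D, chr22:36529152-36529181, minus strand: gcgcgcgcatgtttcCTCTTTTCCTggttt
EIF3F, chr11:7987322-7987351, plus strand: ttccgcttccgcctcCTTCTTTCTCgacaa
EIF3K, chr19:38619173-38619202, plus strand: ttccgtttccaccacCTCTTCCTgttcccg
EIF3M, chr11:32583816-32583845, plus strand: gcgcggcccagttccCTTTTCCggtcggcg
EIF4A2, chr3:186783562-186783591, plus strand: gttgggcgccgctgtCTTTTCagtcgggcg
EIF4B, chr12:53006441-53006470, plus strand: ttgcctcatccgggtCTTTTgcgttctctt

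Of these 9 genes, EIF4B rose, EIF2D and EIF3K fell, and 6 missed the threshold; the median log2 fold change was 0.09. Of all 797 tested genes with such a start 24.1% were called higher and 35.5% lower, with a median of -0.11. Of the 32 tested members that the set covers only with starts of another kind, 14 rose and 7 fell, with a median of 0.25. Tested members absent from the set of RefSeq starts are in neither count. Among them EIF3A, EIF3L and EIF4EBP1 fell, EIF3G rose, and EIF2S2, EIF3E and EIF3H did not pass. A match to the motif describes the annotated start, which may not be the start used in these cells.

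The subunits of eIF2 did not move together. EIF2S1, which encodes the alpha subunit that stress kinases phosphorylate (GRCh38 chromosome 14, 67359997 to 67386516), stood at 328, 312 and 330.1 CPM in shRNF20 and at 209, 175 and 191 CPM in shControl. The groups were well apart, and the mRNA rose 1.69-fold (log2 fold change 0.76, SE 0.08, edgeR adjusted p = 1.04e-04). EIF2S2, the beta subunit, averaged 308 ± 10.9 CPM in shRNF20 and 286 ± 8.12 CPM in shControl (SD, n = 3 each) and did not pass (0.11, SE 0.06). EIF2S3, the gamma subunit that binds GTP and the initiator tRNA, averaged 166 ± 2.19 CPM and 191 ± 48.3 CPM in those groups and did not pass either (-0.21, SE 0.16). Its control values were far apart (242, 146 and 186 CPM), and without the second shControl library it was called lower (-0.39). Per kb of exon that no other annotated gene shares, EIF2S1 stood at 60.1 ± 1.85 in shRNF20 and 35.6 ± 3.11 CPM per kb in shControl (SD, n = 3 each), below EIF2S2 at 116 ± 4.09 and 108 ± 3.06 CPM per kb.

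In eIF2B, the exchange factor, 2 of the regulatory subunits that sense eIF2 phosphorylation rose and 1 subunit of the catalytic pair fell. The remaining subunit of each kind did not pass. EIF2B1, the alpha subunit, rose to 125, 117 and 120 CPM in shRNF20, against 82.01, 84.5 and 92.6 CPM in shControl (0.48, SE 0.07, edgeR adjusted p = 7.25e-04). EIF2B2, the beta subunit, stood at 44.2, 41.9 and 44.3 CPM in shRNF20 and 33.1, 37.5 and 31.001 CPM in shControl (0.36, SE 0.09, adjusted p = 0.0106). That call was lost without shRNF20 replicate 1 (0.33) or 3 (0.33). EIF2B4, the delta subunit, did not pass (0.23, SE 0.09, adjusted p = 0.0553), although it passed without shControl replicate 1 (0.24) or 2 (0.23).

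EIF2B3, the gamma subunit that pairs with the catalytic epsilon subunit, fell to 26.6, 23.9 and 24.9 CPM in shRNF20, against 41.8, 29.4 and 46.5 CPM in shControl (-0.64, SE 0.16, adjusted p = 0.00806). The groups did not overlap, though the second control library lay nearer to the shRNF20 libraries than to the other controls. EIF2B5, the epsilon subunit that holds the exchange activity, averaged 105 ± 4.74 CPM in shRNF20 and 92.3 ± 6.93 CPM in shControl (SD, n = 3 each). It did not pass (0.18, SE 0.08), although it passed without shControl replicate 1 (0.21).

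Of the 2 factors that can deliver tRNA outside the eIF2 route, EIF2D fell and EIF2A did not pass. EIF2D, which also recycles small subunits after termination, stood at 35.8, 35.6 and 34.9 CPM in shRNF20 and 58.3, 52.7 and 63.5 CPM in shControl (-0.71, SE 0.09, edgeR adjusted p = 2.37e-04). Its libraries formed separate groups with little spread. EIF2A averaged 85.6 ± 2.78 CPM in shRNF20 and 84.6 ± 6.90 CPM in shControl (0.02, SE 0.08).

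Among the factors of scanning and subunit joining, EIF5 and EIF1AD rose and EIF5B fell, and the core scanning factors did not pass. EIF5B, the GTPase that joins the large subunit (chromosome 2, 99337353 to 99401326), fell 1.84-fold, to 109, 101 and 105 CPM in shRNF20, against 212, 152 and 215 CPM in shControl (-0.88, SE 0.13, edgeR adjusted p = 5.35e-04). EIF5, which triggers GTP hydrolysis by eIF2 at the start codon, stood at 261, 254 and 259.5 CPM in shRNF20 and 217, 163 and 187 CPM in shControl (0.45, SE 0.10, adjusted p = 0.00502). Neither pair of groups overlapped, and the hydrolysis factor and the joining factor were called in opposite directions. EIF1AD, named for its eIF1A-like domain and not an established initiation factor, rose to 66.6, 65.3 and 63.2 CPM in shRNF20, against 40.8, 29.7 and 31.1 CPM in shControl (0.94, SE 0.12, adjusted p = 2.99e-04).

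EIF1, which keeps the scanning ribosome open, averaged 527 ± 12.4 CPM in shRNF20 and 512 ± 12.7 CPM in shControl (SD, n = 3 each) and did not pass (0.04, SE 0.06). Its paralog EIF1B did not pass (0.10, SE 0.09), at 23.7 ± 1.13 and 22.2 ± 0.61 CPM in those groups. EIF1AX, which works with EIF1, stood at 123, 118 and 122 CPM in shRNF20 and at 145, 66.8 and 94.4 CPM in shControl. The shRNF20 values lay inside the control range and the gene did not pass (0.24, SE 0.23), but without shControl replicate 1 it was called higher (0.56).

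Most of eIF3 was close to its control level, with exceptions at both ends. Of 13 subunits tested, 2 rose, 4 fell and 7 missed the threshold (46.2% called, beside 58.4% of all genes). The median log2 fold change was 0.07. That median was 0.0023 without shControl replicate 2, 0.036 without shControl replicate 1 and 0.042 without shRNF20 replicate 3. EIF3J, a loosely bound subunit that helps eIF3 hold the small subunit (chromosome 15, 44537057 to 44563029), rose 1.91-fold, to 152, 147 and 148 CPM in shRNF20, against 89.8, 67.1 and 77.8 CPM in shControl (0.93, SE 0.10, edgeR adjusted p = 1.36e-04). EIF3G, an RNA-binding subunit of the module that contacts the mRNA entry side, rose to 169.8, 174 and 186 CPM in shRNF20, against 121, 129.8 and 127 CPM in shControl (0.49, SE 0.07, adjusted p = 4.89e-04). In both cases the lowest shRNF20 library lay well above the highest control.

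EIF3A, the largest subunit and a core of the complex, fell to 434, 429.7 and 434 CPM in shRNF20, against 639, 553 and 598 CPM in shControl (-0.46, SE 0.07, adjusted p = 7.83e-04). The peripheral pair EIF3K and EIF3L fell slightly. EIF3K averaged 90.8 ± 4.55 CPM in shRNF20 and 110.02 ± 8.43 CPM in shControl (-0.28, SE 0.08, adjusted p = 0.0166), and EIF3L 106 ± 2.86 and 125 ± 7.03 CPM (-0.24, SE 0.07, adjusted p = 0.0186; SD, n = 3 each). The call of EIF3K was lost without shRNF20 replicate 2 (-0.25) and that of EIF3L without shRNF20 replicate 1 (-0.25) or 2 (-0.23). Only 48.2% of the exon bases of EIF3L in GENCODE 29 are free of other annotated genes, so its counts come from part of the gene.

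EIF3C was counted at 6.54, 6.22 and 5.55 CPM in shRNF20 and 12.9, 9.28 and 15.1 CPM in shControl and was called lower (-1.03, SE 0.19, adjusted p = 0.00199). The gene has a near-identical copy, EIF3CL, on the same chromosome, and reads that map to both are not in these counts. Its level of 0.874 ± 0.07 CPM per kb in shRNF20 and 1.78 ± 0.42 CPM per kb in shControl is far under that of every other tested eIF3 subunit, which ranged from 29.3 to 194 CPM per kb in shRNF20 and from 25.2 to 185 CPM per kb in shControl. The value for EIF3C is therefore uncertain.

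The other 7 subunits had log2 fold changes from -0.13 (EIF3E) to 0.21 (EIF3M) and did not pass. EIF3B, the scaffold that carries EIF3G and EIF3I, averaged 330.2 ± 3.02 CPM in shRNF20 and 358 ± 76.1 CPM in shControl (-0.12, SE 0.13). EIF3D, which can itself bind the cap of some mRNAs, averaged 274 ± 6.90 and 258 ± 3.97 CPM in those groups (0.09, SE 0.06; SD, n = 3 each). The remaining members of this set were EIF3F (0.10), EIF3H (0.16) and EIF3I (0.07). With shControl replicate 2 left out, EIF3B (-0.26) and EIF3E (-0.20) were called lower, and without shControl replicate 1 EIF3M was called higher (0.27).

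**Figure D2:**
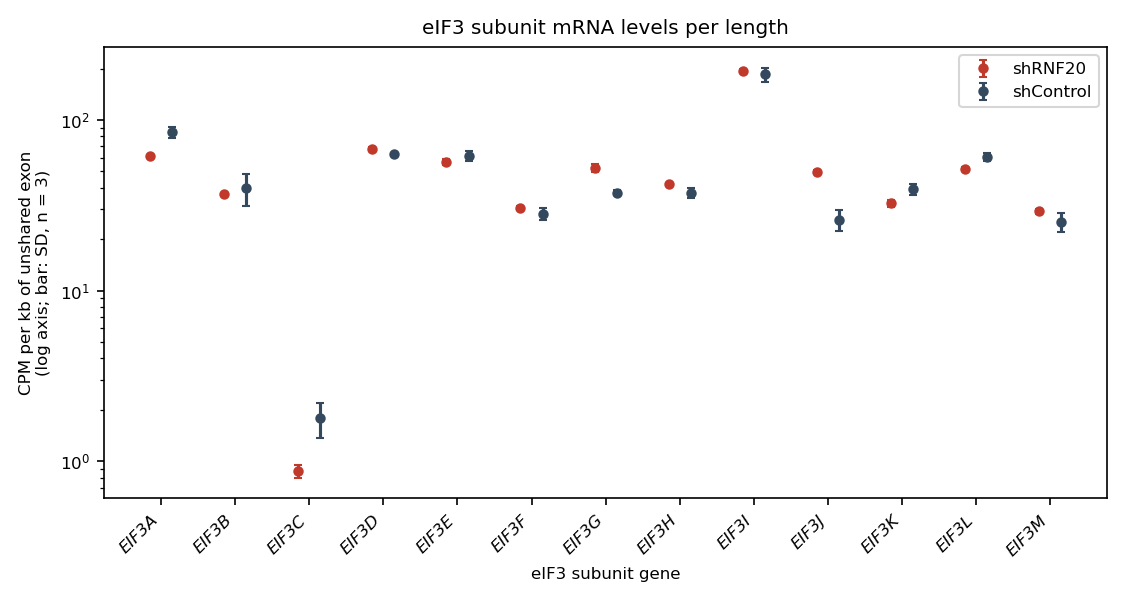
Level of each tested eIF3 subunit mRNA in CPM per kb of unshared exon (log axis), shRNF20 left of shControl, as the mean of 3 libraries with SD bars. EIF3I stood highest (194 in shRNF20 and 185 in shControl) and EIF3J stood in the middle of the complex in shRNF20 (49.6) and near its lower end in shControl (26.0).

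The levels per length ordered the eIF3 mRNAs differently in the 2 groups. EIF3I, a small WD-repeat subunit, came first in both groups. In shRNF20 EIF3D followed at 67.3 ± 1.70 CPM per kb and EIF3A came after it at 61.5 ± 0.35, while in shControl EIF3A followed EIF3I at 84.8 ± 6.12 CPM per kb (SD, n = 3 each). In shControl EIF3E and EIF3L (61.7 ± 3.91 and 60.6 ± 3.40 CPM per kb) lay within each other's SD, and EIF3D (63.4 ± 0.98) lay within the SD of both. Exon lengths are unions over all annotated transcripts, so a gene with long rare exons reads low on this scale.

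The helicase eIF4A has 2 cytoplasmic forms, and the counts allow a statement on only one. EIF4A2 stood at 539, 511 and 477 CPM in shRNF20 and at 385, 501 and 502 CPM in shControl, with overlapping groups, and did not pass (0.14, SE 0.11). EIF4A1 was counted at 11.5, 13.0 and 10.6 CPM in shRNF20 and 2.03, 1.62 and 2.73 CPM in shControl (2.46, SE 0.21, edgeR adjusted p = 3.95e-05). In GENCODE 29, AC016876.2 on the same strand shares 2186 of the 5316 exon bases of EIF4A1, and reads over shared exons are recorded as ambiguous and not counted for either gene. The 298, 286 and 301 reads behind the shRNF20 values and the 60, 41 and 64 behind the shControl values therefore come from the unshared part of EIF4A1 and do not measure the whole mRNA. The share of reads outside annotated exons was also higher in shRNF20, as given above, and its part in this value was not tested.

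EIF4A3, the third member of the helicase family and a core of the exon junction complex, rose to 206, 207 and 221 CPM in shRNF20, against 158, 130.4 and 137 CPM in shControl (0.58, SE 0.09, edgeR adjusted p = 6.13e-04). The groups did not overlap. The cofactors of the helicase moved in opposite directions by small amounts. EIF4B averaged 428 ± 8.20 CPM in shRNF20 and 355 ± 43.5 CPM in shControl (SD, n = 3 each) and rose (0.27, SE 0.09, adjusted p = 0.0343). EIF4H fell, at 395, 389.5 and 383 CPM in shRNF20 and 547, 439 and 447 CPM in shControl (-0.30, SE 0.09, adjusted p = 0.0231). Both calls were lost with 1 library left out. For EIF4B this held without shControl replicate 1 (0.15) and without shRNF20 replicates 1, 2 or 3 (0.25, 0.25 and 0.27), and for EIF4H without shRNF20 replicates 1, 2 or 3 (-0.32, -0.31 and -0.30).

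Both scaffolds of eIF4F were called lower, and their relative EIF4G2 was called higher. EIF4G3, also known as eIF4GII (chromosome 1, 20806292 to 21176888), fell 2.47-fold, to 79.0, 81.6 and 76.2 CPM in shRNF20, against 175, 184 and 226 CPM in shControl (-1.31, SE 0.10, edgeR adjusted p = 2.81e-05). EIF4G2, or DAP5, which lacks the eIF4E-binding site and works in cap-independent initiation, rose to 1415, 1413 and 1444 CPM in shRNF20, against 1098, 879.6 and 1073 CPM in shControl (0.49, SE 0.09, adjusted p = 0.00211). No library of one group reached the other in either gene. EIF4G1, the main scaffold, stood at 835, 859 and 851 CPM in shRNF20 and 1185, 896 and 1074 CPM in shControl (-0.31, SE 0.10, adjusted p = 0.0268). The second control library lay just above the shRNF20 libraries, and the EIF4G1 call was lost without shControl replicate 3 (-0.30) and without shRNF20 replicates 1, 2 or 3 (-0.31, -0.33 and -0.33).

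In the eIF4E family the canonical cap-binding protein moved least. EIF4E stood at 90.9, 89.7 and 90.6 CPM in shRNF20 and 82.6, 71.4 and 78.2 CPM in shControl (0.22, SE 0.08, adjusted p = 0.0313). Its call was lost without shControl replicate 2 (0.15) or 3 (0.22) and without shRNF20 replicates 1, 2 or 3 (0.21, 0.22 and 0.21). EIF4E2, or 4EHP, which binds caps and acts in repression and in hypoxia, rose to 72.3, 68.6 and 75.6 CPM in shRNF20, against 53.7, 50.2 and 52.0 CPM in shControl (0.47, SE 0.07, edgeR adjusted p = 7.70e-04). EIF4E3, an atypical cap-binding member, was rare, with 29, 23 and 15 counts in shRNF20 (1.12, 1.04 and 0.527 CPM) and 85, 98 and 76 counts in shControl (2.88, 3.87 and 3.24 CPM). It was called lower (-1.90, SE 0.32, adjusted p = 0.00108), and the groups did not overlap.

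Of the genes for proteins that hold eIF4E away from eIF4G, EIF4EBP1 was called lower, and EIF4EBP2 and EIF4ENIF1 were called higher. EIF4EBP1, the mTORC1 target 4E-BP1, fell to 39.1, 43.2 and 44.4 CPM in shRNF20, against 71.3, 64.9 and 83.2 CPM in shControl (-0.79, SE 0.11, edgeR adjusted p = 3.38e-04). EIF4EBP2, the related repressor 4E-BP2, rose to 190.1, 188 and 191 CPM in shRNF20, against 142, 92.6 and 119 CPM in shControl (0.69, SE 0.14, adjusted p = 0.00267). Both genes separated the groups, in opposite directions. Per kb of exon, EIF4EBP1 stood at 39.3 ± 2.58 in shRNF20 and 68.2 ± 8.64 CPM per kb in shControl, and EIF4EBP2 at 26.1 ± 0.24 and 16.2 ± 3.41 CPM per kb, so EIF4EBP1 stayed the more abundant per length (SD, n = 3 each).

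EIF4ENIF1, or 4E-T, which binds eIF4E and takes repressed mRNAs to processing bodies, rose to 23.6, 22.2 and 20.6 CPM in shRNF20, against 13.5, 16.7 and 12.8 CPM in shControl (0.63, SE 0.13, adjusted p = 0.00323). The groups did not overlap, and the second control library was the highest of the controls. EIF4EBP3 was counted at 5 to 16 reads per library and did not pass (0.60, SE 0.48). Only 26.6% of its exon bases are free of the readthrough gene ANKHD1-EIF4EBP3.

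**Figure D3:**
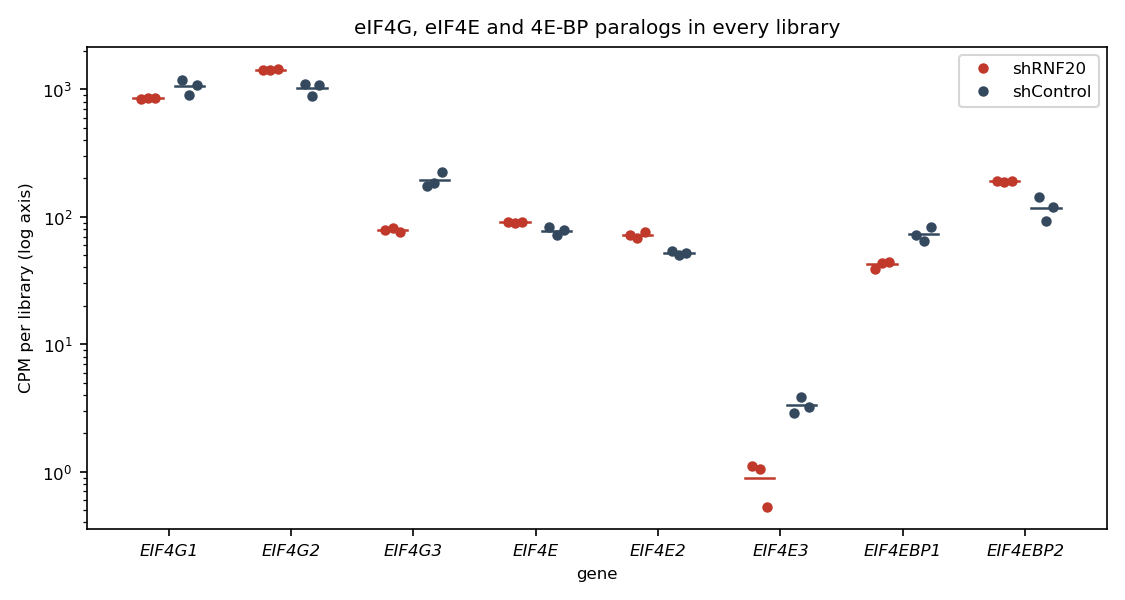
CPM of the eIF4G, eIF4E and 4E-BP genes in each library (log axis; points are libraries and lines are group means), shRNF20 left of shControl. EIF4G3, EIF4E3 and EIF4EBP1 sat lower in all 3 shRNF20 libraries and EIF4G2, EIF4E2 and EIF4EBP2 sat higher. EIF4G1 also sat lower and EIF4E higher there, by smaller log2 fold changes (-0.31 and 0.22).

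The sharpest rise among well-counted members was that of EIF5A2. eIF5A carries the modified amino acid hypusine and, although named an initiation factor, mainly helps elongation and termination. EIF5A2, a paralog normally restricted to few tissues and amplified in some cancers (chromosome 3, 170888415 to 170908693), rose 2.22-fold, to 154, 154 and 151 CPM in shRNF20, against 70.8, 66.5 and 69.1 CPM in shControl (1.15, SE 0.06, edgeR adjusted p = 8.83e-06). The libraries of each group lay close together. EIF5A, the general form, averaged 430.2 ± 11.3 CPM in shRNF20 and 360.2 ± 54.3 CPM in shControl (SD, n = 3 each) and did not pass (0.26, SE 0.11), although it passed without shControl replicate 1 (0.35). Per kb of exon EIF5A stood at 167 ± 4.39 in shRNF20 and 140 ± 21.1 CPM per kb in shControl, against 27.3 ± 0.34 and 12.3 ± 0.39 CPM per kb for EIF5A2 in those groups.

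EIF5AL1, a near-copy of EIF5A, was counted at 17 to 45 reads per library and did not pass (0.22, SE 0.36). EIF6, which keeps the large subunit from joining too early, averaged 142 ± 4.97 CPM in shRNF20 and 118 ± 17.5 CPM in shControl (SD, n = 3 each). It did not pass (0.26, SE 0.11), although it passed without shControl replicate 1 (0.33).

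The promoters of EIF5A2 and EIF4G3, chosen after their values were seen, are shown because these genes had the largest rise and fall among members with a mean above 10 CPM. Each is the 250 bases before a RefSeq start, 5′ to 3′ on the gene's strand (GRCh38.p14). Capitals mark matches to the E-box CACGTG, bound by MYC and related factors, and to the ETS motif CCGGAAGT, searched on both strands. EIF4G3 has another RefSeq start, and the 250 bases before that one (chr1:21111384-21111633) are not shown. Neither EIF4G3 stretch held a match.
EIF5A2, chr3:170908638-170908887, minus strand: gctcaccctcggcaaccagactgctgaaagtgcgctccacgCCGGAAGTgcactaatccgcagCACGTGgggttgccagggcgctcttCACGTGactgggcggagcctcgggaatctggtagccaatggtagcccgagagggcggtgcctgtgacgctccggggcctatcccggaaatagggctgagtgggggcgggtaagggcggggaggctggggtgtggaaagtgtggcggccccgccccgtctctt
EIF4G3, chr1:21176898-21177147, minus strand: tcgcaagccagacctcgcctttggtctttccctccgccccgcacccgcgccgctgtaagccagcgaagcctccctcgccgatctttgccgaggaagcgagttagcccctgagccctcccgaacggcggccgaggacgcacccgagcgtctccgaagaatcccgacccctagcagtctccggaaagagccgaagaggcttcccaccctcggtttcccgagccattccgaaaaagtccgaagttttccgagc

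The E-box was found before a start of 11 of the 44 members in the set of RefSeq starts (25.0%). The shares were 7.73% of all symbols in that set and 10.96% of those tested. Of these 11 members 4 rose and 4 fell. Of all 1236 tested genes with the E-box there, 29.8% were called higher and 29.4% lower. The ETS motif was found for 6 (13.6%), beside 4.13% of all symbols and 7.83% of those tested, and 2 of these rose and 0 fell. All 883 tested genes with the ETS motif there were called higher in 36.4% and lower in 23.6%. With the 50 bases from the start included, a window added after seeing the data, it was found for 9 members (20.5%), beside 4.95% of all symbols and 9.496% of those tested, and 5 of these rose and 0 fell. EIF1AD, EIF2B1 and EIF2B2 made the difference, and the E-box count did not move. Of all 1071 tested genes with the ETS motif in the longer window 37.3% were called higher and 23.3% lower. A match is not a measure of binding.

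Ratios within a library do not depend on scaling between libraries, and gene length cancels in their difference between the groups. They are ratios of raw counts, so their level does not show which paralog was more abundant per length. The log2 ratio of EIF4EBP2 to EIF4EBP1 counts was 2.28, 2.12 and 2.10 in shRNF20 and 0.99, 0.51 and 0.51 in shControl, a difference of 1.497 or 2.82-fold. That of EIF5A2 to EIF5A was -1.47, -1.45 and -1.56 in shRNF20 and -2.55, -2.20 and -2.39 in shControl, a difference of 0.89. In both pairs the groups did not overlap, and shRNF20 was higher.

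The log2 ratio of EIF4G3 to EIF4G1 was -3.40, -3.39 and -3.48 in shRNF20 and -2.76, -2.28 and -2.25 in shControl, a difference of -0.996. The ratio of EIF4E2 to EIF4E differed less, with means of -0.33 ± 0.06 in shRNF20 and -0.57 ± 0.06 in shControl (SD, n = 3 each). For EIF1B over EIF1 the groups overlapped (means of -4.47 ± 0.04 and -4.53 ± 0.05). By exact permutation, two-sided, p was 0.1 for each of the first 4 pairs described, which is the smallest that 3 against 3 libraries can give, and 0.3 for EIF1B over EIF1. Adjusted over the 6 pairs compared, the values were 0.12 and 0.3, so with 3 libraries a group no pair could pass 0.05. The pair EIF4A2 over EIF4A1 (-2.34, exact permutation p = 0.1) rests on the partial EIF4A1 counts.

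**Figure D4:**
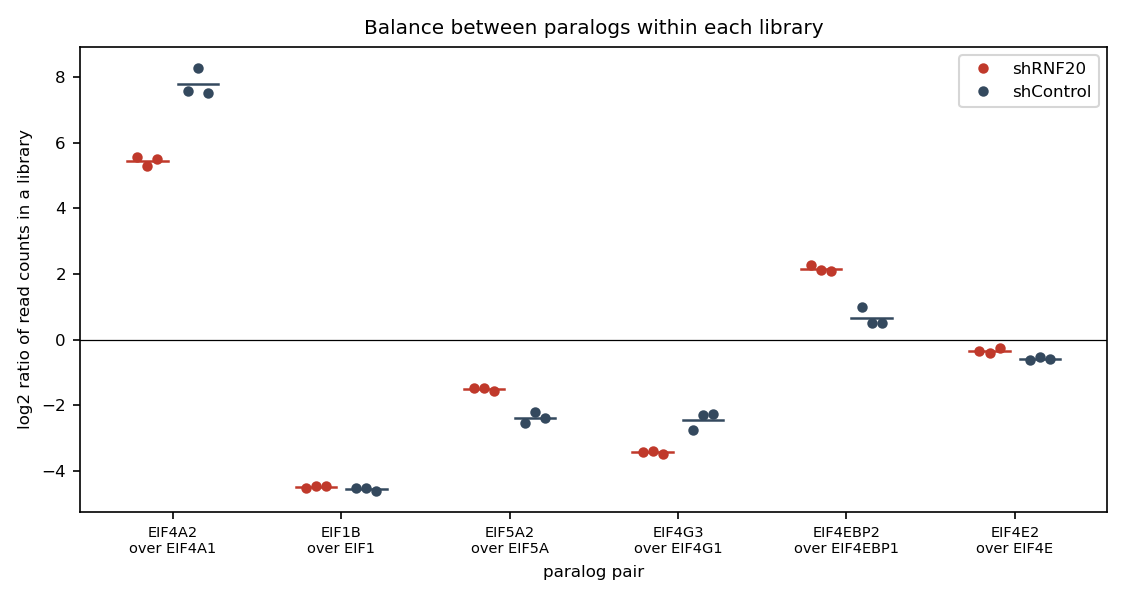
Log2 ratio of the read counts of 2 paralogs in each library (points) with group means (lines), shRNF20 left of shControl, for the 6 pairs. The 3 libraries of each group lie apart for 5 pairs, and for EIF1B over EIF1 they overlap near -4.5.

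Members also differed by the length of their genes. The Spearman correlation between annotated gene span and log2 fold change was -0.48 across the 48 tested members, and -0.19 across the 15366 tested genes with a span, as descriptions across genes that share the same 6 libraries. Of the 12 members that span 40 kb or more, 8 fell and 2 rose (EIF4E and EIF4ENIF1), with a median log2 fold change of -0.55. Over all genes of that span 37.4% fell and 22.1% rose, with a median of -0.15.

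Of the 13 members under 10 kb, 4 rose and 0 fell (median 0.26), beside 32.6% and 23.2% of all such genes (median 0.13). Between these lengths 10 of 23 members rose and 4 fell (median 0.21), beside 33.2% and 27.0% of all such genes (median 0.06). EIF4G3, at 371 kb the longest member, fell most among the well-counted genes, and EIF3E and EIF3H, at 234 and 125 kb, did not pass. These counts and the correlation include the partly counted EIF4A1, a rise at 6.3 kb, and EIF3C, a fall at 47.2 kb. The 2 length limits were set with the members' values known, and whether the members differ from other genes of their length was not tested.

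**Figure D5:**
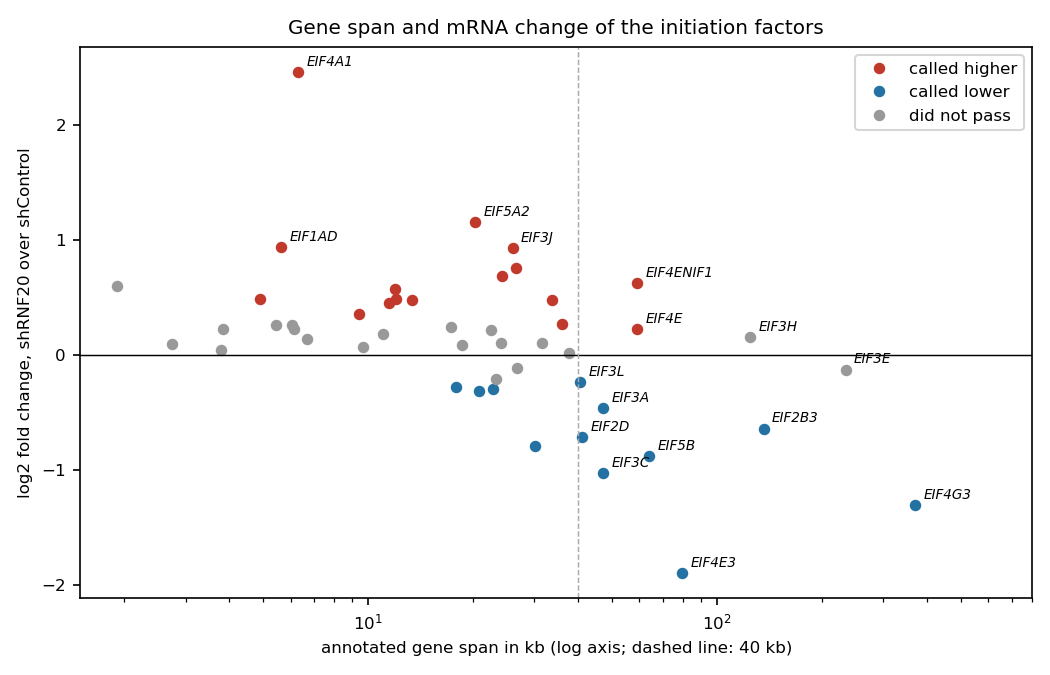
Annotated gene span in kb (log axis) against log2 fold change, shRNF20 over shControl, for the 48 tested members, coloured by call. To the right of the dashed line at 40 kb 8 of 12 members were called lower, and to the left of it 4 of 36 were. EIF4A1 and EIF3C are placed by their partial counts.

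Regulators of these factors moved in both directions as well. Of 47 other genes of the pathway that were tested, 16 rose, 16 fell and 15 did not pass (68.1% called, beside 58.4% of all genes). Among eIF2 kinases, phosphatase subunits and their regulators 2 of 12 rose and 5 fell (58.3% called). BZW2, an eIF5 mimic that restrains initiation, fell to 15.04, 14.03 and 14.5 CPM in shRNF20, against 42.9, 36.4 and 40.8 CPM in shControl (-1.46, SE 0.10, edgeR adjusted p = 1.67e-05). The heme-regulated kinase EIF2AK1 fell to 84.3, 81.4 and 78.2 CPM in shRNF20, against 152, 160.5 and 134 CPM in shControl (-0.87, SE 0.08, adjusted p = 7.02e-05). The kinase GCN2 (EIF2AK4, -0.66) fell too, PPP1R15B (0.50), which directs a phosphatase to eIF2, rose, and PKR (EIF2AK2, 0.02) and PERK (EIF2AK3, 0.02) did not pass.

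Among mTORC1 components and kinases upstream of eIF4E 4 of 14 rose and 4 fell (57.1% called, beside 58.4% of all genes). MLST8, a subunit of mTORC1, fell to 35.5, 35.05 and 35.2 CPM in shRNF20, against 56.9, 52.2 and 59.4 CPM in shControl (-0.67, SE 0.08, edgeR adjusted p = 1.91e-04), and the kinase MTOR fell to 77.2 ± 3.29 CPM, against 155 ± 30.1 CPM in shControl (-1.01, SE 0.13, adjusted p = 2.68e-04). RHEB (0.56), the GTPase that activates mTORC1, and TSC1 (0.54), which inhibits RHEB, both rose. RPS6KB2 also rose (0.34, SE 0.10, edgeR adjusted p = 0.0174). LARP1, which binds TOP mRNAs, rose slightly and passed narrowly (0.20, SE 0.07, edgeR adjusted p = 0.0437). Whether single calls of the pathway genes held under other settings was not examined. PDCD4 (-0.70), which inhibits eIF4A, and DDIT4 (-0.89), a stress-induced repressor of mTORC1, fell. Activators and inhibitors thus stood in both directions.

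Of 11 poly(A)-binding proteins and other initiation helpers 5 rose and 4 fell (81.8% called, beside 58.4% of all genes). PABPC1, the main cytoplasmic poly(A)-binding protein, fell to 812, 797 and 797 CPM in shRNF20, against 1392, 1304 and 1458 CPM in shControl (-0.79, SE 0.07, edgeR adjusted p = 4.41e-05). PAIP2B, a repressor of PABP, was rare and fell to 0.926 ± 0.18 CPM in shRNF20, against 5.04 ± 0.32 CPM in shControl (-2.43, SE 0.23, adjusted p = 5.74e-05; SD, n = 3 each), while its paralog PAIP2 rose (0.63). DENR (0.52), a partner in reinitiation that resembles part of EIF2D, and ABCE1 (0.58), which splits ribosomes after termination, rose.

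Of 8 elongation and termination factors tested 3 rose and 3 fell (75% called, beside 58.4% of all genes). EEF1A1, which brings tRNA to the elongating ribosome, fell to 6441, 6357 and 6147 CPM in shRNF20, against 9883, 10677 and 10591 CPM in shControl (-0.72, SE 0.07, edgeR adjusted p = 6.93e-05). ETF1, the release factor that reads stop codons, rose to 352, 354 and 364 CPM in shRNF20, against 226, 194 and 221 CPM in shControl (0.74, SE 0.08, adjusted p = 9.57e-05). EEF2 (-0.52), which moves the ribosome along, and EEF1B2 (-0.27), a nucleotide exchange subunit for EEF1A1, also fell, while EEF1D (0.70), another exchange subunit, and EEF2K (0.29), the kinase that inhibits EEF2, rose.

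Both enzymes that make hypusine on eIF5A were called higher. DOHH rose to 59.2, 59.3 and 56.2 CPM in shRNF20, against 50.6, 36.8 and 49.3 CPM in shControl (0.35, SE 0.12, edgeR adjusted p = 0.0334). DHPS was counted at 3.58 ± 0.48 CPM in shRNF20 and 0.601 ± 0.18 CPM in shControl (2.58, SE 0.29, adjusted p = 1.48e-04; SD, n = 3 each). As with EIF4A1, a gene on the same strand (AC010422.8) shares 1157 of its 3006 exon bases, and these low counts do not measure the whole mRNA.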

How the data were processed

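The authors deposited raw read counts per gene for 6 libraries. The submitters' processing notes name STAR 2.7.11a, FastQC 0.12.1 and the build hg38; the sources used here give no annotation release, trimming or counting options. The strand columns were close to equal (50.1% to 50.2% in 1 of them), so counts without strand were used. Reads over exons of several genes are recorded as ambiguous (10.7% to 11.2% of all reads) and reads mapping to several places are not counted; lines that name no gene (20.9% to 24.1%) stayed out of library sizes and tests.

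Gene types, positions and exon lengths came from GENCODE 29 (GRCh38), which holds 58264 of 62703 genes. Low genes were removed with filterByExpr (minimum count 10). TMM factors gave the CPM values, and edgeR 4.0.16 in R 4.3.3 compared shRNF20 with shControl by the robust quasi-likelihood F-test with Benjamini-Hochberg adjustment over all genes tested and a threshold of 0.05. SE is the log2 fold change over the root of F. Paralog ratios used scipy 1.17.1. Whether the replicates came from separate cultures is not stated, so the p-values reflect the spread among these 6 samples alone, and that spread may be technical. Within groups, counts of every pair of libraries differed by more than sampling noise. Results were recomputed with DESeq2 1.42.0, limma-voom (limma 3.58.1), RLE or upper quartile factors, no filter, a stricter filter (CPM of 1 or more in 3 libraries), a block for replicate number, summed shRNF20 libraries, no mitochondrial genes, a test against 1.2-fold, each library left out and, added after seeing the data, summed strand columns. Named with full values are the 3 called members with the smallest p of each complex, members changed at least 2-fold, the paralog pairs and the 2 genes with the smallest p of each pathway list; others described in detail were chosen after their values were seen. Members and lists were chosen with earlier results of these data known. One marker result is not reported here.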

Additional observations from a re-analysis of the deposited data

How the results depend on the processing

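Between 13 and 22 initiation factors were called higher and between 8 and 15 lower under every alternative except the sum of the 3 shRNF20 libraries, which left 6 higher and 5 lower of 48; all genes called then numbered 1642 higher and 1753 lower, against 4528 and 4704. With libraries left out the ranges were 13 to 21 higher and 8 to 15 lower. For the other pathway genes those ranges were 11 to 17 higher and 14 to 18 lower. Upper quartile scaling gave 22 initiation factors higher and 12 lower, and the median of all genes moved from -0.01 to 0.02. The other pathway genes numbered 5 higher and 8 lower with summed libraries, and 10 higher with the test against 1.2-fold. With replicate number as a block 17 members were higher and 12 lower; EIF5A (0.27) and EIF6 (0.27) then passed and EIF4E (0.23) did not. The numbers were not taken to pair the libraries, since deviations of same-numbered libraries correlated at -0.0163, 0.035 and 0.0284. The median of the eIF4E-binding inhibitors moved from 0.61 to 0.57 without a filter on low counts. That of eIF5A moved from 0.26 to 0.29 with upper quartile scaling, 0.34 with limma-voom and 0.22 without a filter. With 1 library left out the medians ranged from 0.034 to 0.32 for the scanning and joining factors, from 0.062 to 0.12 for eIF2, from 0.18 to 0.24 for eIF2B, from -0.44 to -0.30 for eIF2A and eIF2D, from 0.0023 to 0.092 for eIF3, from 0.15 to 0.31 for eIF4A and its cofactors and from 0.12 to 0.33 for EIF6. They ranged from 0.15 to 0.25 for the eIF4E family, from -0.44 to -0.24 for eIF4G, from 0.47 to 0.62 for the inhibitors and from 0.13 (without shControl replicate 2) to 0.57 (without shControl replicate 3) for eIF5A; the cause was not tested. No paralog difference changed sign with a library left out. Low counts limit EIF4E3, EIF4EBP3, EIF5AL1 and the partly counted EIF4A1, EIF3C and DHPS.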
